A study of Mus musculus with 212 samples.

Results

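Genes for the subunits of the mitochondrial respiratory chain were followed in whole-genome mRNA profiles of mice of the LXS panel. Members were all genes whose symbol begins with Nduf, Sdh, Uqcr, Cox4, Cox5, Cox6, Cox7 or Cox8 and whose log2 expression was 6 or more in at least 5 profiles. Of 27123 genes in the table, 80 carried such a symbol and 77 passed the level rule, among 20617 genes that passed it in all. The LXS panel is a set of recombinant inbred strains made from ILS and ISS, parents selected for long and short sleep after ethanol. The profiles used came from 4 untreated strains: ILS/IbgTejJ (6 profiles), ISS/IbgTejJ (6), LXS41/IbgTejJ (5) and LXS80/IbgTejJ (6). The labels describe small RNA from the right hemisphere of the brain. The sources used here do not state the tissue, age or platform of the mRNA profiles. Nothing says that the profiles came from separate animals, so p-values measure only the spread between them.

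The respiratory chain passes electrons from NADH and succinate to oxygen and pumps protons that drive ATP synthesis. Complex I takes electrons from NADH, complex II (succinate dehydrogenase, also an enzyme of the tricarboxylic acid cycle) takes them from succinate, complex III hands them to cytochrome c, and complex IV reduces oxygen. Complexes I, III and IV combine nuclear and mitochondrial gene products, whereas all subunits of complex II are nuclear, and neurons rely heavily on the chain for ATP.

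By role, the 77 members were 7 core and 28 accessory subunits of complex I, 8 of its assembly factors, 4 subunits and 4 assembly factors of complex II, 8 subunits of complex III and 11 of complex IV. A further 5 were tissue isoforms or paralogues of complex IV subunits (Cox4i2, Cox6a2, Cox6b2, Cox8b and Ndufa4l2). Another 2, Ndufa11b and Uqcrh-ps2, matched by symbol but were assigned no role. Whether these 2 encode subunits was not examined, and they are counted among the members throughout. Levels of 75 members were at 6 or more in every profile. Just inside the level rule, Uqcrb reached 6 in 19 profiles and Ndufa11b in 17. Just outside it, Cox7a2l reached 6 in 3 profiles, and Cox8c (mean 5.76) and Cox7b2 (mean 2.96) did so in 0. Levels are not compared between genes, because how the signal of a gene relates to its RNA is not known here.

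One profile stood apart from the others. The mean of 6 markers of cerebellar granule cells was 7.27 in ILS profile 4, against 9.59 to 10.18 in the other 22 profiles. Markers of neurons averaged 11.11 to 11.35 in all 23 profiles and those of red blood cells 6.20 to 6.97. ILS profile 4 also had the highest mean of 8 microglial markers (8.63, next 8.48) and the lowest of 6 choroid plexus markers (8.37). Results of ILS against ISS that changed without ILS profile 4 are given with and without it.

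Promoter sequences from RefSeq (build GRCm38.p6, 250 bases before to 50 after the start of the gene) matched 61 of the 77 members. They were searched on both strands for the letters bound by 3 factors known to act on respiratory genes: GCGCANGCG for NRF1, CCGGAAG for the ETS factor GABP, and AANATGGCG for YY1. The NRF1 and YY1 strings can overlap at their shared end letters. NRF1 letters were in 27.9% of member promoters and in those of 7.03% of all 27025 genes of the RefSeq promoter table. The ETS letters were in 26.2% of members and 9.93% of all genes, and the YY1 letters in 14.8% and 2.76%. At least 1 of the 3 was in 35 of 61 member promoters (57.4%), against 17.2% of all. The level rule was applied to the members but not to all genes here, so the compared sets are not alike in expression. A match describes these letters only and is not a binding site.

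The 250 bases before the start are shown for Sdha and Sdhd, complex II genes that varied together, for Uqcrh, which varied with the other members, and for Uqcr11, which varied against them. Capitals mark matches.
Sdha (chr13:74350241-74350490, minus strand): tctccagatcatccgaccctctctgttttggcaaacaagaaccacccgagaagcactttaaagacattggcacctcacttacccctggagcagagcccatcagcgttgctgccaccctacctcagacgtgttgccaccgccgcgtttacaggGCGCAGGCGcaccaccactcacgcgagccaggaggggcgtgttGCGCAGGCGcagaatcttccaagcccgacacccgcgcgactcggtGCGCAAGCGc
Sdhd (chr9:50603850-50604099, minus strand): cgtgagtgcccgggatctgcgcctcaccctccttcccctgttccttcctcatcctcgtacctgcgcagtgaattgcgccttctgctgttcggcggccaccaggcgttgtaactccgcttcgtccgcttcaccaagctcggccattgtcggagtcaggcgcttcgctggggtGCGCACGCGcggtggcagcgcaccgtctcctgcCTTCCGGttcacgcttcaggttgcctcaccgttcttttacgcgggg
Uqcrh (chr4:116075071-116075320, minus strand): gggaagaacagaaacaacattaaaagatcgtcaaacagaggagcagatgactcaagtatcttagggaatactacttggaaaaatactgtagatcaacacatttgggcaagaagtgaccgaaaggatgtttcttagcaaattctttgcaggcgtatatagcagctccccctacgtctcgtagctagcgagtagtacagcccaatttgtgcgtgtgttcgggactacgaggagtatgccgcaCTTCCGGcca
Uqcr11 (chr10:80406822-80407071, minus strand): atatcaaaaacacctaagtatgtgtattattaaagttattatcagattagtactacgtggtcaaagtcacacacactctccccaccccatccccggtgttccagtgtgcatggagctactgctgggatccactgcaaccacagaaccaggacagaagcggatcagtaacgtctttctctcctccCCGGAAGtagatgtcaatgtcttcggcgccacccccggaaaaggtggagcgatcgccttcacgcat
Sdha held 3 NRF1 matches in this stretch and Sdhd held 1 NRF1 and 1 ETS match. Uqcrh and Uqcr11 each held 1 ETS match. Uqcr11 also had an NRF1 match that began 5 bases before the start and ran past the printed stretch, so it is not marked. These genes were picked as examples. Whether the letters go with correlation among the members was not tested.

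Across the 4 strains, 20 of the 77 members (26.0%) differed by the limma F test with Benjamini-Hochberg adjustment over all genes, against 22.6% of all genes tested. The share was therefore near the background. By role the counts were 3 of 4 for complex II, 3 of 8 for complex III, 2 of 7 for the complex I core, 5 of 28 for the accessory subunits and 2 of 8 for the assembly factors of complex I. They were 2 of 11 for complex IV, 1 of 4 for complex II assembly and 1 of 5 for the tissue isoforms. Of the 2 genes without a role, 1 passed. The median share of a member's variance that lay between strains was 14.2%, and that of all genes 19.3%. After quantile normalization, which gives every profile the same distribution of values, 12 members passed. Of all 20617 genes 3351 passed then, against 4668 before it. Without LXS80 profile 3 the count was 13, beside 3828 of all genes. The 8 profiles of set 1, which hold ILS, ISS and LXS41 but not LXS80, gave 4 in a test over these 3 strains (a set is a number in the profile's name whose meaning the labels do not state). In that test 754 of all genes passed.

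**Figure D1:**
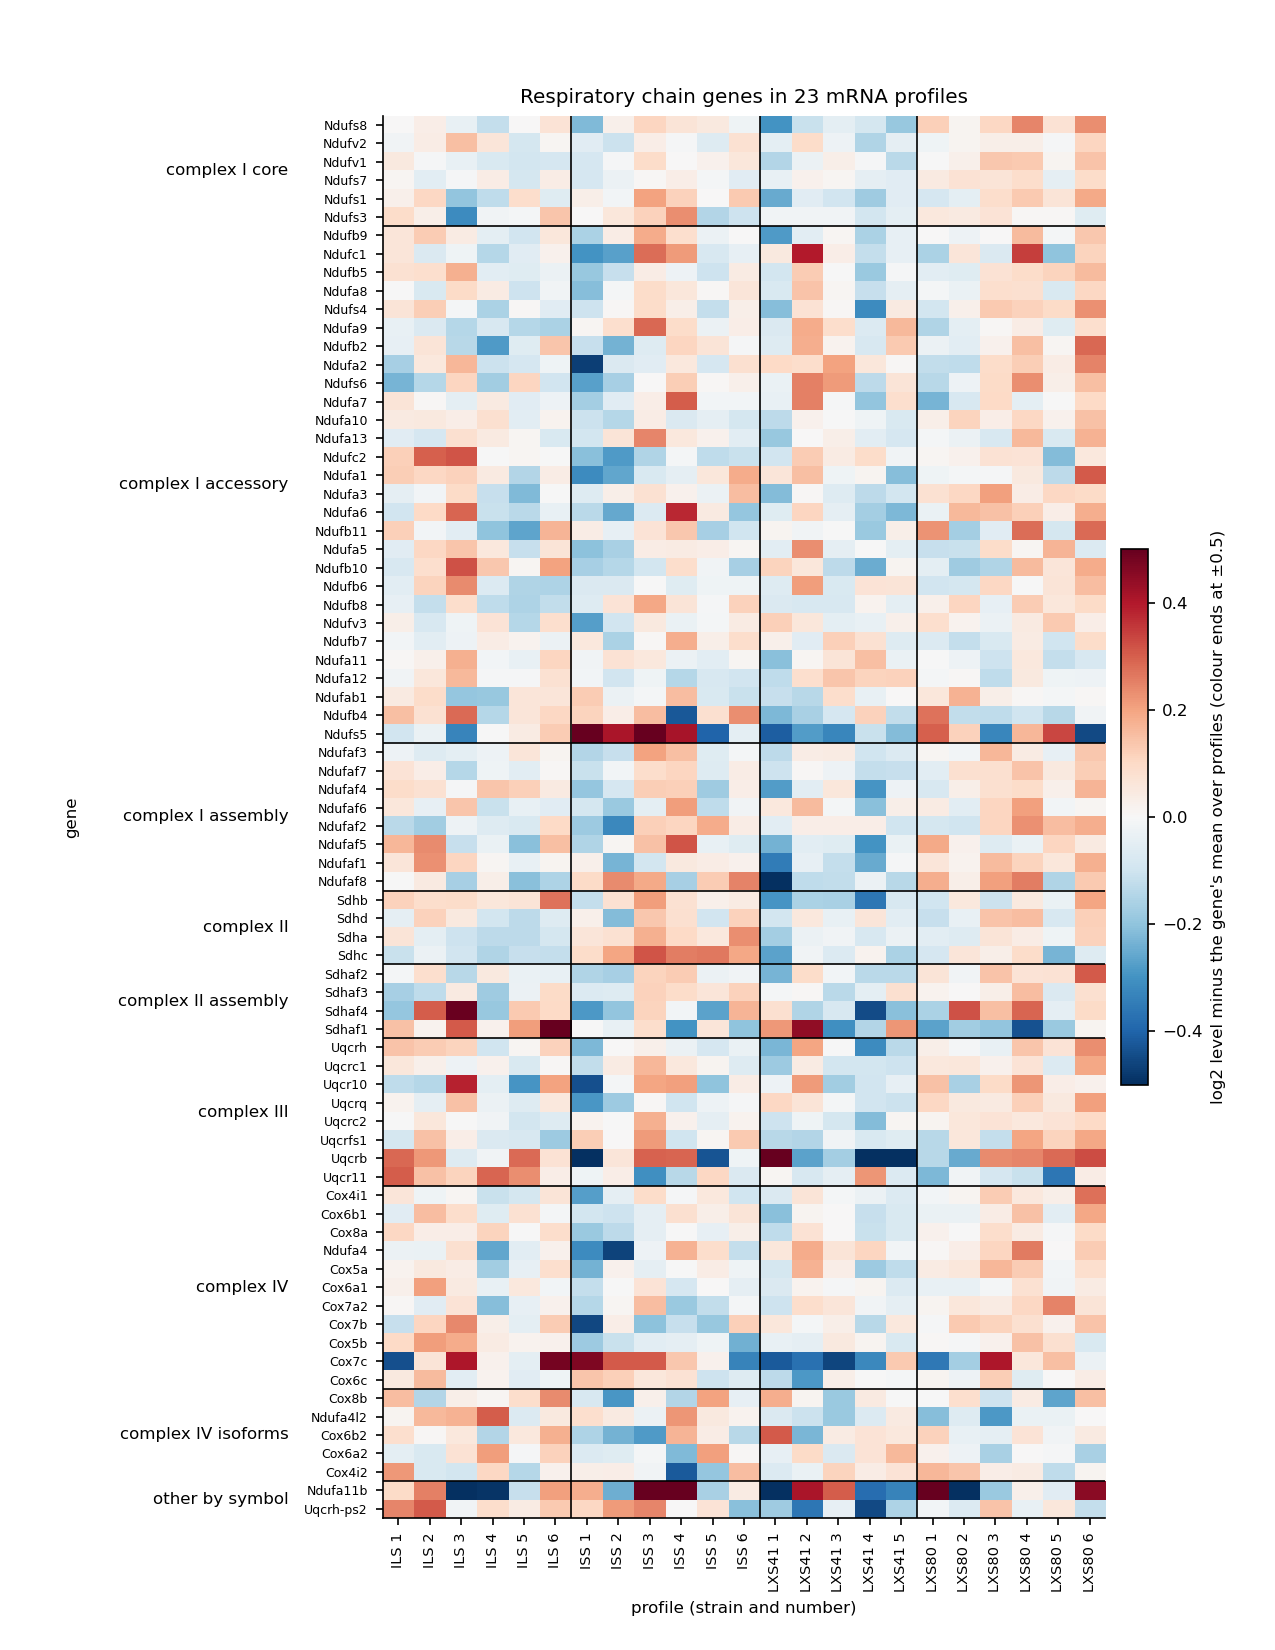
Colours show the log2 level of 76 members (rows, grouped by role and ordered by correlation with the other members) minus its mean over 23 profiles (columns, grouped by strain). Columns that are mostly red or mostly blue show members shifting together, and Sdhc is red in all 6 ISS profiles.

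Complex II held the members with the smallest strain p-values. Sdhc, a membrane anchor that helps form the quinone site, had log2 levels of 9.55, 9.59 and 9.67 (lowest, median and highest) in ILS and 9.79, 9.92 and 10.01 in ISS. In LXS41 the 5 values were 9.43, 9.68, 9.63, 9.72 and 9.54, and LXS80 ran from 9.47 through a median of 9.68 to 9.79. ISS stood above the other strains: no ILS or LXS41 profile reached the lowest ISS profile, and the highest LXS80 profile matched it to 2 decimals. Sdhc was 0.32 lower in ILS than in ISS on the log2 scale (a difference of -0.32, SE 0.05; limma adjusted p = 0.000222), or 1.25-fold higher in ISS.

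Sdha, the flavoprotein that oxidizes succinate, also had its highest strain mean in ISS. Its lowest, median and highest log2 levels were 11.16, 11.20 and 11.36 in ILS and 11.35, 11.38 and 11.53 in ISS. Only ILS profile 1 reached the ISS range. The LXS41 values of Sdha were 11.12, 11.26, 11.28, 11.21 and 11.26, and LXS80 spanned 11.23 to 11.41. Its difference of ILS minus ISS was -0.19 (SE 0.04; limma adjusted p = 0.00437).

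Sdhb, the iron-sulphur subunit that carries electrons from Sdha to the anchors, had another strain pattern. LXS41 was low, with log2 levels of 9.37, 9.51, 9.51, 9.31 and 9.59, while ILS held 9.73, 9.76 and 9.94 as lowest, median and highest. The corresponding levels were 9.55, 9.73 and 9.88 in ISS and 9.56, 9.68 and 9.87 in LXS80. Every LXS41 profile was below every ILS profile, whereas ILS and ISS overlapped (difference 0.06, SE 0.06; limma adjusted p = 0.604). Sdhd, the other membrane anchor, had no strain call (limma F test, adjusted p = 0.829), and its medians ran from 9.58 in ILS to 9.69 in ISS.

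Averaged over the 4 subunits, complex II was at 10.17 ± 0.08 in ISS, 10.08 ± 0.08 in LXS80, 10.05 ± 0.05 in ILS and 9.98 ± 0.06 in LXS41 (log2 mean ± SD over profiles). In this order, each neighbouring pair overlapped in its profiles. For the complex I core, complex III and complex IV, LXS80 had the highest mean and LXS41 the lowest. The mean of all 20617 genes was likewise highest in LXS80 (7.915) and lowest in LXS41 (7.867). None of these differences between averages was tested. Among the complex II assembly factors, Sdhaf1, which serves the iron-sulphur clusters of Sdhb, passed the strain test (adjusted p = 0.0331), with means from 7.70 in LXS80 to 8.11 in ILS. Of the remaining 3, none passed the limma strain test.

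**Figure D2:**
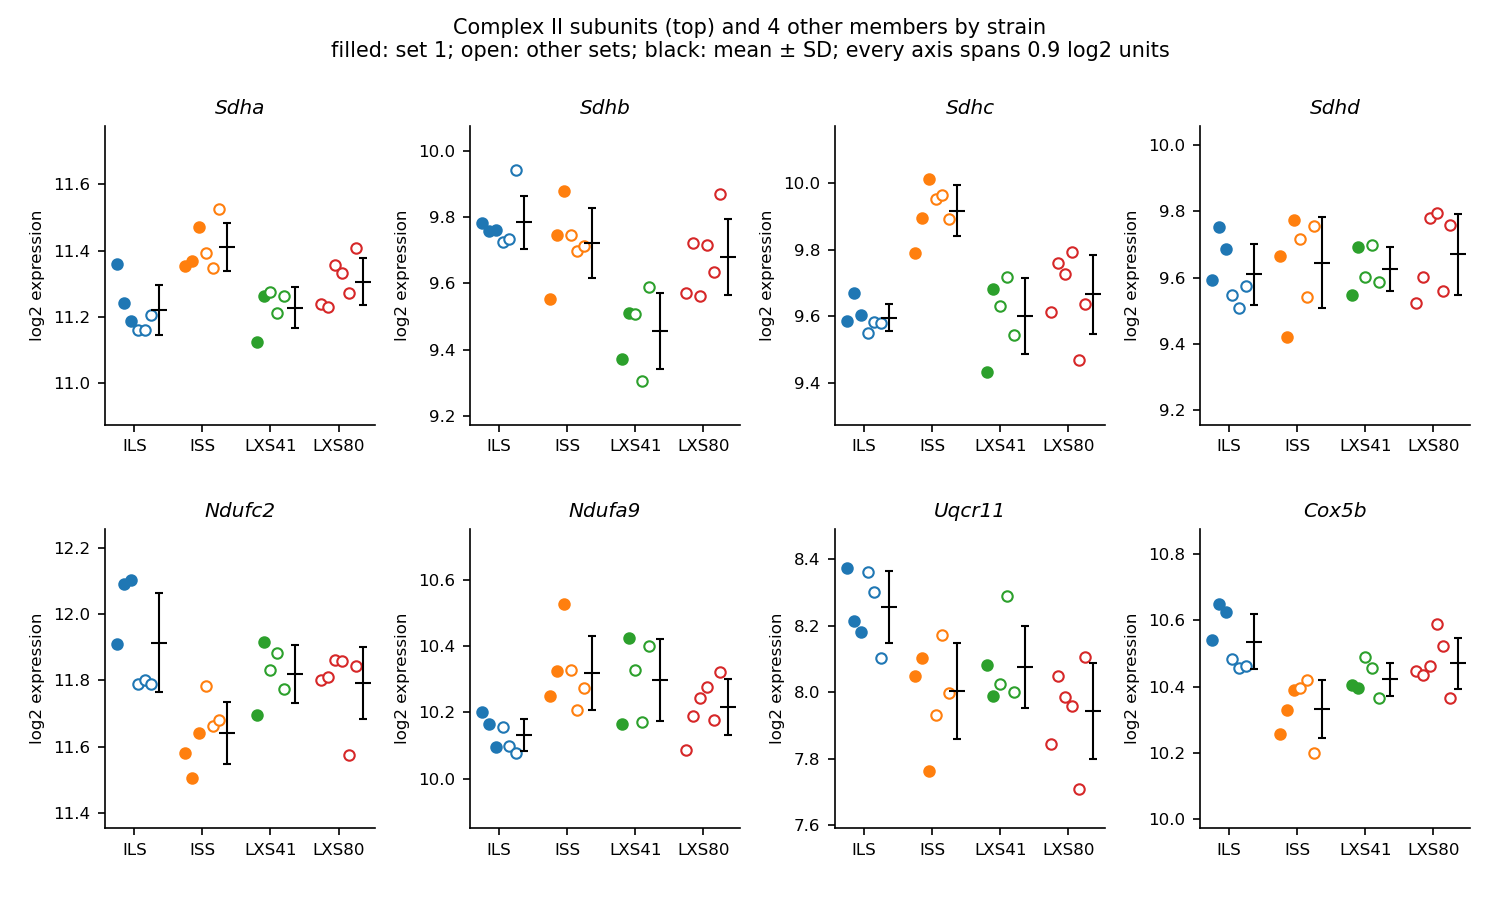
Points are the log2 level in each profile of 4 strains for the complex II subunits (top) and for Ndufc2, Ndufa9, Uqcr11 and Cox5b (bottom), with filled points for set 1 and black bars for the mean ± SD. Sdhc separates ISS from ILS, Sdhb is low in LXS41, and the ILS points of Ndufc2 are higher in set 1 than outside it.

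Between the parents, 7 of 77 members (9.09%) passed the limma contrast of ILS against ISS, against 7.60% of all genes. Of these, 4 were higher in ILS (3.39% of all genes were) and 3 were lower (4.21% of all genes were). The median absolute difference was 0.06 on the log2 scale, against 0.07 over all genes. Beside Sdhc and Sdha, the lower member was Ndufa9, an accessory subunit where the arms of complex I meet. Its log2 levels were 10.08, 10.13 and 10.20 in ILS and 10.21, 10.30 and 10.52 in ISS (lowest, median and highest). The groups met without overlapping, and the difference was -0.19 (SE 0.05; limma adjusted p = 0.0303).

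The largest rise was in Ndufc2, an accessory subunit of the complex I membrane arm. Its log2 levels were 11.79, 11.85 and 12.10 in ILS and 11.51, 11.65 and 11.78 in ISS (lowest, median and highest), a difference of 0.27 (SE 0.06; limma adjusted p = 0.00656). The groups did not overlap, but the 3 highest ILS profiles were all from set 1. Cox5b, a zinc-binding subunit of complex IV, held 10.46, 10.51 and 10.65 in ILS and 10.20, 10.36 and 10.42 in ISS. It was 0.20 higher in ILS (SE 0.04; limma adjusted p = 0.00475), again without overlap.

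Smaller or less separated rises were seen in a subunit of complex III and in another of complex IV. Uqcr11, one of the smallest complex III subunits, spanned 8.1 to 8.37 in ILS and 7.76 to 8.17 in ISS (difference 0.25, SE 0.07; limma adjusted p = 0.0306). Cox8a, a small subunit of complex IV, spanned 12.83 to 12.95 in ILS and 12.65 to 12.87 in ISS (difference 0.12, SE 0.04; limma adjusted p = 0.0486). Both overlapped between the strains. Without ILS profile 4, 5 members and 1240 of all 20617 genes passed, and the limma adjusted p was 0.0751 for Uqcr11 and 0.107 for Cox8a. Over the 23 fits that left out 1 profile, Cox8a lost its call in 16 and Uqcr11 and Ndufa9 in 6 each, whereas Sdhc, Sdha, Ndufc2 and Cox5b passed each time. Cox8a also lost it in 7 of 9 other settings.

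Members did not shift as one between the parents. ILS was above ISS in 44 members and below it in 33, and the median difference was 0.03. Over all genes ILS was above in 9667 and below in 10950, with a median difference of -0.01. In complex IV, 9 of 11 members had the higher mean in ILS, and all 5 tissue isoforms did, with none of these 5 past the test. In complex II, 3 of 4 had the lower mean in ILS.

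**Figure D3:**
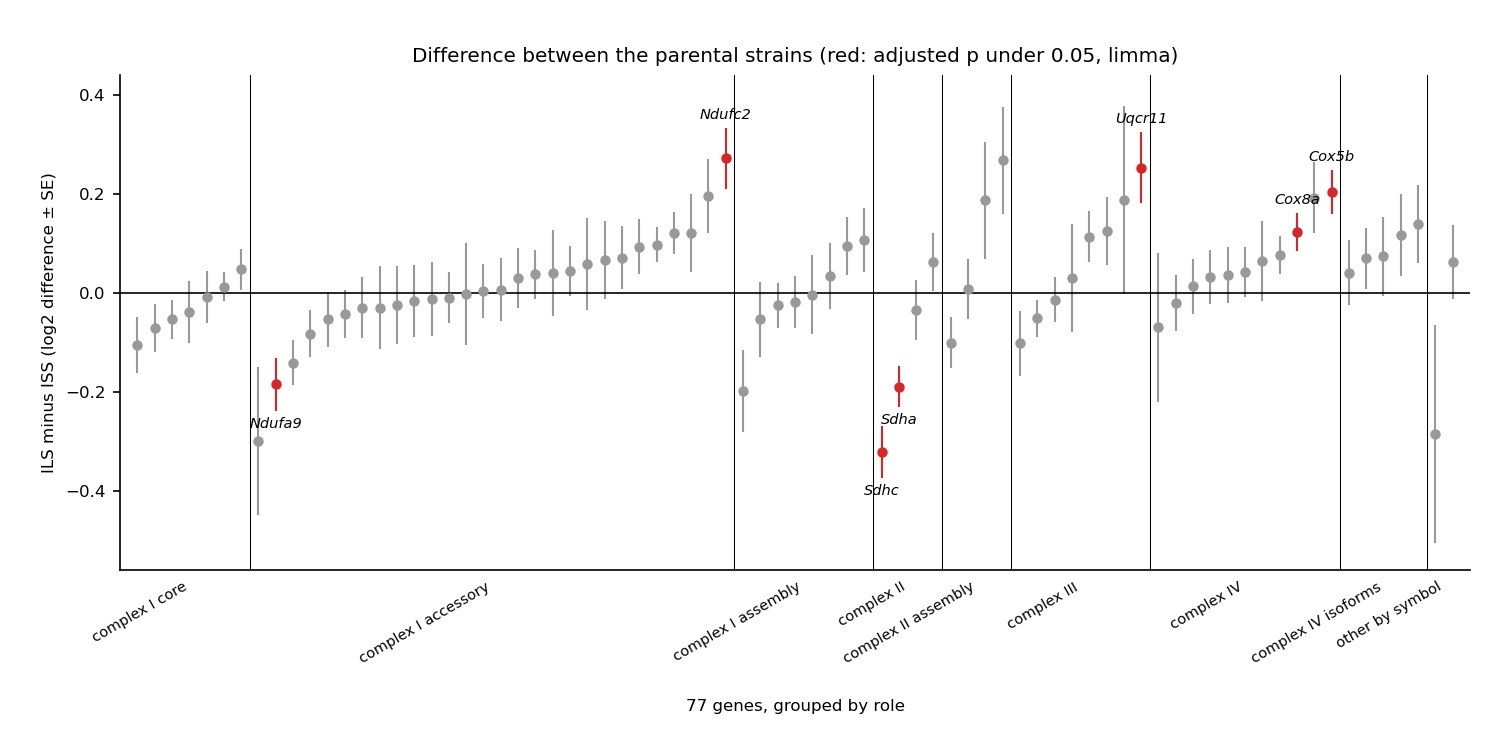
Points are the log2 difference of ILS minus ISS with its SE for 77 members grouped by role, in red where the limma adjusted p was under 0.05. The 7 red points lie on both sides of 0, with Sdhc and Sdha low and Ndufc2 and Uqcr11 high.

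The parents shared set 1 (3 profiles each), while their later profiles carried set 11 (ILS) or set 15 (ISS). Within set 1, 2 members passed (Ndufc2 and Ndufs5) and outside it 1 (Sdhc). Of all 20617 genes, 294 passed within set 1 and 283 outside it, against 1567 over all sets. A limma model that also held set takes its difference of ILS minus ISS from the set 1 profiles alone, since sets 11 and 15 each hold only 1 parent. It differs from the fit within set 1 only in its estimate of the spread, so it is not a separate check. In this model 496 of all genes passed, among them Ndufc2 (limma adjusted p = 0.00114) and Cox5b (0.0143). Sdhc (0.0642), Sdha (0.336), Ndufa9 (0.181), Uqcr11 (0.242) and Cox8a (0.108) did not pass in it. Sdhc differed by -0.28 within set 1 and by -0.37 outside it, with limma adjusted p of 0.107 and 0.0122. Ndufc2 differed by 0.46 within set 1 and by 0.09 outside it, with adjusted p of 0.00667 and 0.462. Cox5b (0.28 and 0.13), Sdha (-0.13 and -0.25), Ndufa9 (-0.21 and -0.16), Uqcr11 (0.29 and 0.22) and Cox8a (0.18 and 0.07) kept their sign, none with an adjusted p under 0.05 in either. The test of the difference between sets passed for 0 members after adjustment in limma and for 9 of 77 at an unadjusted p under 0.05, with Ndufc2 the smallest (adjusted p = 0.507). Signs inside and outside set 1 were the same for 41 of 77 members. These counts were not taken over all genes, so how they compare with the background is not known.

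Marker genes of other cell types moved between the parents too. For the choroid plexus 4 of 6 markers were lower in ILS. List means were 8.37 to 8.74 in ILS (8.43 to 8.74 without profile 4) and 8.76 to 8.94 in ISS. For microglia 3 of 8 (C1qb, C1qc and Aif1) were higher in ILS. List means were 8.41 to 8.63 in ILS (8.41 to 8.46 without profile 4) and 8.19 to 8.42 in ISS. The list's median difference was 0.01, and Cx3cr1 (-0.17), C1qa (-0.14), Csf1r (-0.04) and Tmem119 (-0.03) had the lower mean in ILS. Of the other lists, 1 of 9 neuronal markers was called higher in ILS. Lower were 1 of 7 for astrocytes, 1 of 7 for oligodendrocytes and 1 of 5 for muscle. Of 10 vessel cell markers 1 was higher and 1 lower. None was called for cerebellar granule cells (median difference -0.40) or red blood cells. Among all genes 3.39% were called higher and 4.21% lower. The part of these cell types in the differences of the members was not tested. In bulk profiles, fewer cells of a type and less RNA per cell cannot be told apart, and a strain variant under a probe was not tested.

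Between the recombinant strains, 14 of 77 members (18.2%) passed the limma contrast and all 14 were lower in LXS41 than in LXS80. Among all genes 20.7% passed, 18.7% lower and 2.03% higher in LXS41, so the members again stood near the background. Of the 14, 4 were complex I core subunits, 3 complex I assembly factors, 2 accessory subunits, 2 subunits of complex III, 1 a subunit and 1 an assembly factor of complex II, and 1 was Uqcrh-ps2. None of the 11 complex IV subunits passed, although all 11 had the lower mean in LXS41, as did 67.1% of all genes. The median difference was -0.08 for the members and -0.06 for all genes.

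Ndufs8, a core iron-sulphur subunit of complex I, had the smallest p. Its log2 levels were 9.49, 9.68, 9.74, 9.70 and 9.59 in LXS41 and 9.80, 9.90 and 10.03 (lowest, median and highest) in LXS80. The strains did not overlap (difference -0.28, SE 0.06; limma adjusted p = 0.00221). Ndufaf1, an early assembly factor of complex I, held 8.54, 8.84, 8.77, 8.63 and 8.88 in LXS41 and 8.90, 8.97 and 9.06 in LXS80. It too was separated (difference -0.25, SE 0.06; limma adjusted p = 0.00791). Uqcrc2, a core protein of complex III, was at 11.51, 11.59, 11.52, 11.39 and 11.62 in LXS41 and at 11.62, 11.67 and 11.71 in LXS80. There the highest LXS41 profile lay at the lowest LXS80 level (difference -0.14, SE 0.04; limma adjusted p = 0.0151).

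Scaling moved this count: 12 members passed after median centring of each profile and 3 after quantile normalization, and of the 14 only Ndufs8 was among the latter (difference -0.16, limma adjusted p = 0.0385). Over all 20617 genes, 3607 passed after median centring. Quantile normalization changed the calls over all genes from 419 higher and 3847 lower in LXS41 to 457 higher and 753 lower. With the profiles of these strains alone 9 members passed, beside 3456 of all 20617 genes. The count fell to 6 and 5 without LXS41 profile 1 or 4, to 9 without LXS41 profile 5, and to 8, 7 and 7 without LXS80 profile 3, 4 or 6. Over all genes the 4266 calls fell to 2057, 2255 and 3947 without LXS41 profile 1, 4 or 5. They fell to 3317, 3388 and 2567 without LXS80 profile 3, 4 or 6. LXS41 (sets 1, 6 and 9) and LXS80 (sets 3 and 14) share no set, so set and strain cannot be told apart here. Lower in LXS41, beside 18.7% of all genes, were 4 of 8 microglial markers (list means 8.1 to 8.20, against 8.24 to 8.48 in LXS80), 3 of 7 of oligodendrocytes (10.26 to 10.50, against 10.46 to 10.73), 2 of 7 of astrocytes and 2 of 10 of vessel cells. Their part was not tested.

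Coordination was described by correlating deviations from the strain means over the 23 profiles, without a test, since all genes of a profile share its preparation and scaling. The median Pearson r of a member with the mean of the other members was 0.54, and that of all genes with the member mean was 0.25. An r of 0.5 or more was found for 46 of 77 members (59.7%) and for 22.6% of all genes. Pairs within a role had a median r of 0.28 and pairs across roles 0.22. Quantile normalization lowered these values to 0.26 for members with the rest, -0.01 for all genes, 0.09 within roles and 0.07 across them. The member mean ran from 8.79 to 8.99 over profiles, a range of 0.20, and the mean of all genes from 7.81 to 7.96, a range of 0.15.

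Among roles, the complex I core had the highest median pair correlation (0.42), followed by complex II (0.36), complex I assembly factors (0.32) and accessory subunits (0.29). Complex III was at 0.22, complex IV at 0.19, and the complex II assembly factors at 0.08. In these 3 roles the median pair with other roles was higher (0.23, 0.22 and 0.20). Within complex II, Sdha and Sdhd reached 0.58 and Sdhc and Sdhd 0.51, but Sdhb and Sdhd only 0.14. Members close to the rest were Ndufb9 (0.86), Ndufc1 (0.81) and Ndufb5 (0.80), accessory subunits of complex I. The complex III hinge protein Uqcrh was at 0.78. Ndufb9 ran from 0.83 to 0.89 with single profiles left out and was at 0.55 after quantile normalization, below Ndufc1 (0.71) and the complex III subunit Uqcr10 (0.69).

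**Figure D4:**
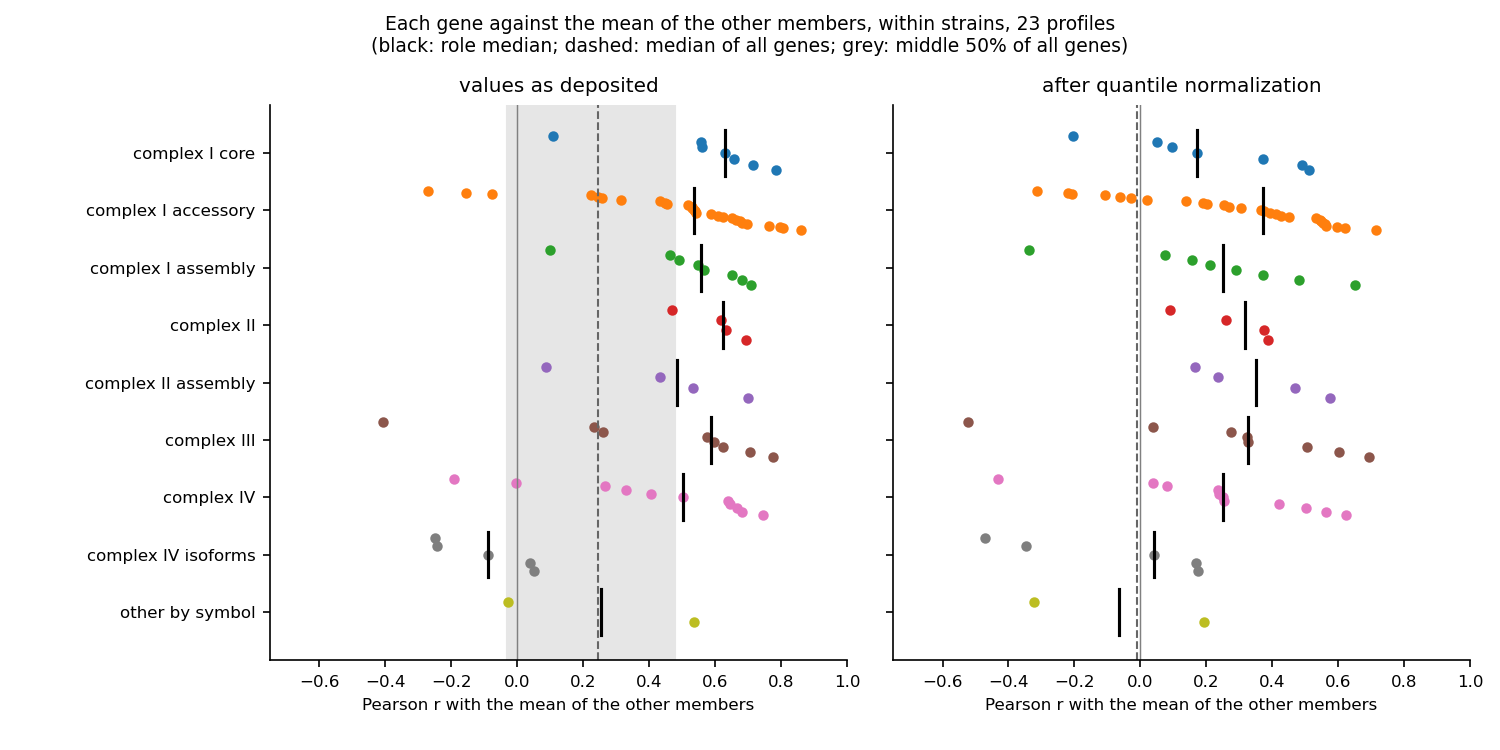
Points are the Pearson r of each member with the mean of the other members over 23 profiles after removal of strain means, by role, for values as deposited (left) and after quantile normalization (right). Bars mark role medians, the dashed line marks the median of all genes (0.25 left, -0.01 right), and grey (left only) the middle range of all genes. Most members lie right of the dashed line, Uqcr11 lies left of 0 in both panels, and all complex IV isoforms lie left of the dashed line in the left panel.

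Some members broke from the group. Uqcr11 had the lowest correlation with the other members (-0.41), from -0.57 to -0.27 over profiles left out in turn, and it stayed negative in each of the 5 other scalings and centrings tried. Within complex III its r was -0.52 with Uqcrc2 and -0.51 with Uqcr10, while Uqcrc1 and Uqcrh reached 0.64. In ISS profile 3 Uqcr11 had its lowest ISS level (7.76), and Uqcrc2 in the same profile its highest (11.79). That profile also had the highest mean of all genes (7.96).

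Ndufs5, an accessory subunit of complex I on the intermembrane side, followed at -0.27 (-0.41 to -0.14 with profiles left out). Its levels were split within ISS: profiles 1 to 4 held 7.50, 7.31, 7.43 and 7.31, and profiles 5 and 6 held 6.50 and 6.85. LXS80 ranged from 6.45 to 7.23, and the strain F test over all profiles made no call (limma, adjusted p = 0.0817). Within set 1, Ndufs5 had the largest parental difference that passed, -0.67 (limma adjusted p = 0.00639), against 0.07 outside it (adjusted p = 0.919). Cox7c, a small complex IV subunit, had a within-strain SD of 0.28, as did Ndufs5, and an r near 0 (0.00 to 2 decimals). Only Uqcrb (0.35) and Ndufa11b (0.41), which lie at the level threshold, had a larger SD, and the median member was at 0.11. Cox6c, another complex IV subunit, was at -0.19, and its sign turned to 0.03 without subtraction of strain means.

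The 5 tissue isoforms of complex IV had low or negative correlations with the other members, as did the ubiquitous Cox6c and Cox7c. For the 5 isoforms the median r with the rest was -0.09, and with members of other roles the median pair was -0.04. Cox4i2, an isoform known for its response to low oxygen, was at -0.25, and Cox6a2, the isoform typical of heart and skeletal muscle, at -0.24. Cox6b2, known from testis, was at -0.09, Ndufa4l2, a paralogue of Ndufa4 known from hypoxia, at 0.04, and Cox8b, the muscle counterpart of Cox8a, at 0.05. After quantile normalization Cox6b2 and Cox8b were at 0.17. Levels of Cox4i2 ran from 6.40 to 7.03, and those of Cox8b from 6.50 to 7.03, not far above the level threshold. Those of Ndufa4l2 (6.37 to 6.96) and Cox6b2 (6.61 to 7.20) were near it too. Of these 5, only Ndufa4l2 passed the strain test (limma, adjusted p = 0.0420), with means of 6.77 in ILS, 6.73 in ISS, 6.58 in LXS41 and 6.56 in LXS80.

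Uqcrh and Uqcrh-ps2, like Ndufa11 and Ndufa11b, are related in name, and whether probes tell them apart is not known here. Uqcrh-ps2 passed the strain test (limma, adjusted p = 0.00926), with means of 9.12 in ILS and 8.75 in LXS41. Its r with the members was -0.03, against 0.78 for Uqcrh.

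Other genes of oxidative metabolism were counted in 5 lists. ATP synthase (14 genes tested), cytochrome c and c1 (2), complex III and IV assembly factors (24), the tricarboxylic acid cycle (13) and regulators of mitochondrial biogenesis (16) held 13 strain calls in 69 genes (18.8%, against 22.6% of all genes). They held 5 calls of ILS against ISS (7.25%, against 7.60%) and 13 of LXS41 against LXS80 (18.8%, against 20.7%), the last all lower in LXS41. Between the parents, Tfb1m, a mitochondrial ribosomal RNA methyltransferase, was 0.25 higher in ILS (SE 0.06; limma adjusted p = 0.00737). Coa5, a complex IV assembly factor, was 0.20 higher (adjusted p = 0.0386). Cox11, a copper chaperone of complex IV, differed by -0.15 (adjusted p = 0.0191), the complex III assembly factor Uqcc3 by -0.21 (0.0386) and Atp5s by -0.21 (0.0435). Within set 1, outside it and with set as a term, limma called 0 of these genes, beside 294, 283 and 496 of all 20617 genes.

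In LXS41 against LXS80, 6 of 13 genes of the tricarboxylic acid cycle were lower in LXS41, 4 of 24 assembly factors, 2 of 16 regulators and 1 of 14 ATP synthase genes, beside 18.7% of all genes. Dld, a subunit shared by several dehydrogenase complexes, differed by -0.29 (limma adjusted p = 0.00179), and Cs, citrate synthase, by -0.17 (0.0063). Coa5 differed by -0.32 (0.00234) and Atp5d by -0.10 (0.0265). After quantile normalization 3 of these genes passed, beside 1210 of all 20617 genes (4266 before it). Cyc1 and Cycs, for cytochromes c1 and c, had no strain call (limma F test, adjusted p of 0.248 and 0.904). Genes encoded by mitochondrial DNA were not analysed here.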

How the data were processed

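Per gene, the authors deposited log2 expression. How it was normalized, and on which platform or tissue it was measured, is not stated in the labels or headers. Symbols were matched by Ensembl identifier for 26820 of 27123 rows. Columns were used where a strain had no more columns than labelled libraries, which gave 23 columns; the other 376 of 399 were not used, and the small RNA tables were not used. The level rule (log2 of 6 or more in at least 5 profiles) was applied to these 23 columns, and a gene that passes there also passes over all columns. Profiles are numbered in the order of their columns. The number of profiles limits the precision. No profiles were identical (Spearman 0.971 to 0.991).

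Strain means were fitted over all 20617 genes with limma 3.58.1 in R 4.3.3 (intensity trend, robust empirical Bayes), with an F test over strains and 2 contrasts. P-values were adjusted by Benjamini-Hochberg over all these genes, with a threshold of 0.05. The fit was tested on simulated data. Named members are those past ILS against ISS, the 2 with the smallest F-test p per role, the 5 lowest and 5 highest correlations with the rest, the complex IV isoforms and the widest range per role; partner genes are the 2 with the smallest F-test p per list. Uqcr10, Uqcrc1, Cox11, Uqcc3 and other genes outside this rule were named after their values were seen. Members and lists were chosen with earlier results of these data known. Alternatives were other scalings, filters, fits and sets, and each profile left out. One named member is left out of the text. The strain test within set 1, deviations from strain and set means and scaling to unit SD were chosen after seeing the data.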

Additional observations from a re-analysis of the deposited data

Results flagged for a closer look

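Of 132 groups (33 named members in 4 strains), 7 held a profile far from the others of its strain, and chance gives about 1 in 20 groups. Ndufaf8, an assembly factor of complex I, was low at 7.38 in ISS profile 4 (others 7.64 to 7.79) and at 7.02 in LXS41 profile 1 (others 7.41 to 7.51). Cox7c was high at 7.45 in LXS41 profile 5 (others 6.86 to 7.0). Ndufc2 was low at 11.57 in LXS80 profile 5 (others 11.80 to 11.86), and Ndufs3, a core subunit of complex I, at 8.25 in ILS profile 3 (others 8.54 to 8.70). Sdhb was high at 9.94 in ILS profile 6 (others 9.73 to 9.78), and Uqcrc2 at 11.79 in ISS profile 3 (others 11.57 to 11.63). The 7 fell in 7 different profiles.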

How the results depend on the processing

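The count of members with a strain effect (20) was 12 after quantile normalization and 4 in set 1 (without LXS80), and 13 to 21 with single profiles left out. Over all genes the 4668 strain calls became 3351 after quantile normalization and 754 in set 1. They ran from 3103 to 5054 with single profiles left out. That for ILS against ISS (7) was 2 with set as a term, 2 within set 1 and 1 outside it. Over all genes these calls went from 1567 to 496, 294 and 283, and ran from 1240 to 1644 with profiles left out. The count for LXS41 against LXS80 (14) was 3 after quantile normalization, 9 in these strains alone and 5 to 17 with profiles left out. Over all genes the 4266 calls became 3607 after median centring, 1210 after quantile normalization and 3456 in these strains alone. They ran from 2057 to 4653 with profiles left out. For the partner genes the strain count (13) was 1 in set 1. Their count for ILS against ISS (5) was 0 with set as a term, 0 within set 1 and 0 outside it, and 2 to 5 with profiles left out. For LXS41 against LXS80 (13) it was 8 after median centring, 3 after quantile normalization, 6 in these strains alone and 4 to 19 with profiles left out. The median r of a member with the rest (0.54) was 0.49 after median centring, 0.26 after quantile normalization, 0.50 without subtraction of strain means and 0.58 after subtraction of strain and set means. For all genes (0.25) these 4 values were 0.19, -0.0111, 0.28 and 0.31. Within roles (0.28) they were 0.22, 0.0926, 0.25 and 0.29, and between roles (0.22) 0.18, 0.0681 and 0.24 for median centring, quantile normalization and strain and set means. With profiles left out the 4 medians ran from 0.51 to 0.56, 0.21 to 0.27, 0.25 to 0.30 and 0.19 to 0.23. Of 1123 settings of single members, 904 kept direction and side of the threshold, 219 lost the call and 0 reversed. The cause of these changes was not tested; fits on fewer profiles have fewer samples. Set as a term could not be fitted for the strain F test, since set and strain overlap. No paired analysis was possible because the profile names carry no replicate number that the labels give. Signal over background is not known.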
